A study of Glycine max with 12 samples.

Results

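Melatonin added to a silica nanoparticle spray was examined in leaves of soybean by setting 3 libraries of leaves sprayed with nano-SiO2 and melatonin together (nano-SiO2+MT) against 3 libraries of leaves sprayed with nano-SiO2 alone. These 6 libraries were chosen by their treatment labels from the 12 of the series. The other 6 are 3 libraries of a control without either agent and 3 with melatonin alone (MT). All 12 came from wild-type plants of the cultivar HN95 that had received the same saline-alkali solution in potted soil, with NaHCO3 and Na2SO4 at 320 mM each and NaCl and Na2CO3 at 40 mM each. Every group was therefore stressed, and no unstressed leaf enters the comparison. The nano-SiO2 dose was 200 mg/L and the melatonin dose 300 µM in both groups that received them, and leaves were taken on day 7 after spraying. Whether the control plants were sprayed with carrier only, and whether the 3 libraries of a group came from separate pots, is not stated in the labels, so the p-values below measure the spread between these libraries, which may be partly technical.

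Melatonin is an indoleamine that plants make from tryptophan by way of serotonin, and sprayed on leaves it is used as a protectant against abiotic stress. Several of the genes described below serve nitrogen and iron. Nitrate taken up by the plant is reduced to nitrite and then to ammonium before it enters glutamine, and asparagine synthetase moves that nitrogen into asparagine, a compound in which legumes carry and store it. Ferritins are plastid proteins that hold iron in a mineral core, and iron superoxide dismutases are plastid enzymes with an iron cofactor that remove superoxide.

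Values are FPKM (fragments per kilobase of transcript, scaled to the fragments of the library), and differences are on the log2(FPKM + 1) scale, nano-SiO2+MT minus nano-SiO2 unless another pair is named. A gene was called higher or lower when its adjusted p in limma, over the 28260 genes tested, was under 0.05. Gene names are the descriptions in the deposited table, and identifiers are printed without the prefix Glyma, the digits before the letter G being the chromosome. Summed FPKM ranged from 522120 to 559092 over the 12 libraries and replicates correlated at 0.958 to 0.992. On the first principal component nano-SiO2 2 lay at 49.8, against 18.6 and 20.2 for nano-SiO2 1 and 3. Each other group also had 1 library apart: control 1 (-27.8, against 17.2 and 24.7), MT 3 (8.03, against -26.6 and -30.1) and nano-SiO2+MT 3 (4.21, against -28.8 and -29.6). The 20 most abundant genes of nano-SiO2 2 held 9.765% of the summed FPKM against 13.28% to 17.13% in the other 5 libraries compared. The 89 leaf mesophyll markers (Rubisco small chains, chlorophyll-binding proteins, photosystem subunits) summed to between 48210 and 103900 FPKM in every library, which matches the leaf label. The median difference over all tested genes was -0.148, and -0.00262 after median-ratio scaling of the libraries. The median of a gene list, where printed, is therefore given relative to the median of all genes.

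With melatonin added to nano-SiO2, 432 of 28260 genes were called (1.53%), 87 higher (0.308%) and 345 lower (1.22%). The rises included 3 asparagine synthetases and 4 ferritins. The falls included 2 iron superoxide dismutases, 10 genes of saponin and sterol synthesis and 6 of the secondary wall. Of the 432, 164 differed by at least 1 on the log2 scale, 39 higher and 125 lower. The 3 libraries of one group did not overlap the 3 of the other for any of the 432, a separation that 977 tested genes showed upward (3.46%) and 5517 downward (19.5%). Rises made up 20.1% of the calls as deposited, 44.9% after median-ratio scaling and 45.0% after quantile normalization. Median-ratio scaling gave 316 calls (1.12% of genes), 142 higher (0.502%) and 174 lower (0.616%), and quantile normalization 307 (1.09%), 138 higher (0.488%) and 169 lower (0.598%). Without nano-SiO2 2 the count was 103 (0.368%), with 37 higher (0.132%) and 66 lower (0.236%), and 98 of the original calls were among them. Without nano-SiO2+MT 1 it was 104. Calls that passed in each fit with 1 library left out that tested the gene (12 fits for most genes) numbered 71, 20 higher and 51 lower. They are named below as kept calls. For other genes the number of those fits in which the call passed and the highest adjusted p are given. Of the 12 fits, 6 leave out a control or MT library, which is not in the 2 groups compared. Those fits leave the difference itself unchanged and alter only the estimated spread and the set of genes tested. A call that passed in 6 of 12 fits may thus have passed in none that left out a compared library.

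**Figure D1:**
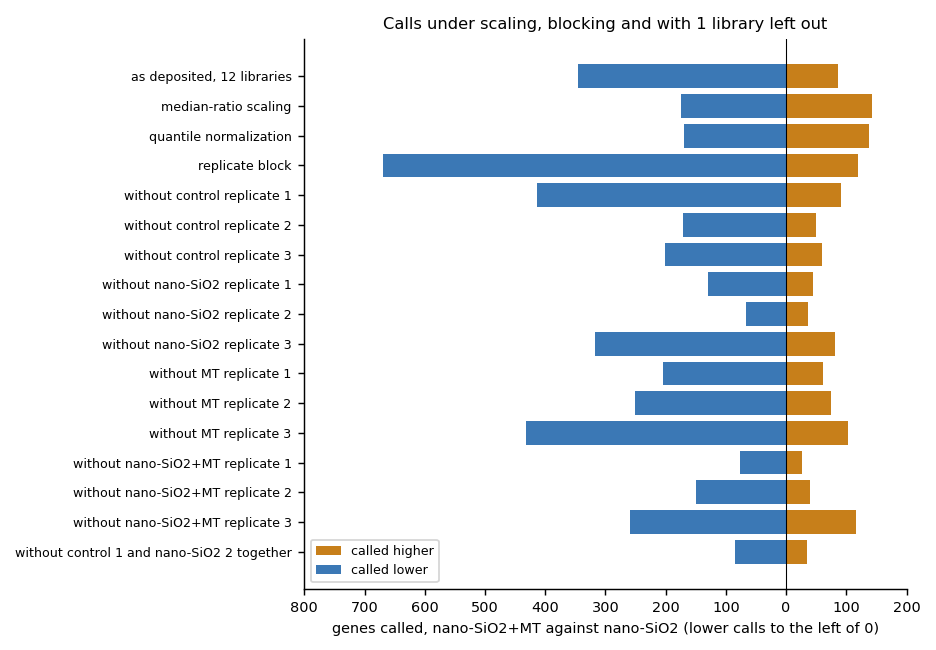
Genes called in nano-SiO2+MT against nano-SiO2 (horizontal axis, number of genes; higher to the right of 0, lower to the left) for the deposited FPKM, 2 other scalings, a fit with the replicate number as a block and fits without named libraries. The total runs from 103 without nano-SiO2 2 to 789 with the block, and falls outnumber rises in every setting shown.

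Asparagine synthetase genes showed the largest rises among described genes. Asparagine synthetase 2 (14G195000, chromosome 14) stood at 1.17, 1.79 and 6.09 FPKM in the nano-SiO2 libraries and at 63.4, 60.01 and 100.1 in the nano-SiO2+MT libraries, a difference of 4.39 (SE 0.35, adjusted p = 0.000317). The gene 02G228100, described as an asparagine synthetase-like protein, went from 3.02, 2.74 and 5.75 to 61.1, 57.9 and 94.1 FPKM, a difference of 3.92 (SE 0.23, adjusted p = 8.03e-06). In both genes nano-SiO2 3 was the highest nano-SiO2 library and still lay far below the lowest nano-SiO2+MT library. The third gene that rose, 11G171400, was listed at 0, 0 and 0.0212 FPKM with nano-SiO2 and at 2.38, 1.69 and 3.91 with both agents, a difference of 1.82 (SE 0.18, adjusted p = 0.000397). All 3 calls were kept. The other 3 of the 6 tested asparagine synthetase genes, at 1.87 to 10.3 FPKM in the nano-SiO2 libraries, were not called. The rises were thus 50% of the list, beside 0.308% of all genes, and the list median was 1.04 relative to all genes. How reads shared by close copies were divided is not given in the labels, so the levels of single copies in a gene family are uncertain.

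In the absence of nano-SiO2 the same 3 genes also rose with melatonin. Asparagine synthetase 2 stood at 0.5605, 0.505 and 1.09 FPKM in the control and 119.8, 111 and 106 with MT, a difference of 6.05 (SE 0.35, adjusted p = 1.37e-06). For 02G228100 the difference without nano-SiO2 was 5.93 (SE 0.23, adjusted p = 4.35e-08), larger than with it, and the interaction (the difference with nano-SiO2 minus the difference without) was -2.01 (SE 0.32, adjusted p = 0.0115). The interaction of 11G171400 was -1.51 (SE 0.25, adjusted p = 0.0146), and that of asparagine synthetase 2 did not pass at -1.67 (SE 0.49, adjusted p = 0.259).

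A nitrate reductase gene and a nitrite reductase gene rose together. Nitrate reductase (02G132100), the enzyme that turns nitrate into nitrite, stood at 18.8, 14.9 and 16.3 FPKM with nano-SiO2 and 38.4, 42.01 and 40.4 with both agents, a difference of 1.23 (SE 0.12, adjusted p = 0.000367). Nitrite reductase (07G212800), the plastid enzyme of the next step, went from 26.8, 23.6 and 28.9 to 44.3, 42.2 and 53.4 FPKM, a difference of 0.79 (SE 0.12, adjusted p = 0.00789). Both calls were kept, and both genes also rose with MT alone, by 1.58 (SE 0.12, adjusted p = 6.58e-06) and 1.10 (SE 0.12, adjusted p = 0.000276). Uroporphyrinogen-III C-methyltransferase (08G150800), which makes the precursor of the siroheme cofactor of nitrite reductase, rose from 5.97, 6.17 and 5.18 to 9.55, 9.52 and 9.65 FPKM (log2 difference 0.65, SE 0.13, adjusted p = 0.03; passed in 6 of 12 fits, adjusted p up to 0.121). Among all 94 tested genes of nitrogen uptake and assimilation, 3 were higher and 2 lower (3.19% and 2.13%, beside 0.308% and 1.22% of all genes). Their median was -0.0388 relative to all genes (0.0011 without nano-SiO2 2). The gene 08G150800 is not 1 of these 3 rises, and the third is not named here. The transporter NRT1/PTR FAMILY 1.2 (14G138200) fell from 6.61, 7.74 and 5.04 to 3.05, 2.16 and 3.33 FPKM (log2 difference -0.95, SE 0.18, adjusted p = 0.0202), a call that was lost without nano-SiO2 1 or 2 or nano-SiO2+MT 1 or 2 (adjusted p up to 0.0973). None of the 14 tested ureide and purine breakdown genes was called, with allantoate amidohydrolase (15G156900), the most abundant, at 100.1, 89.7 and 80.97 FPKM with nano-SiO2 and 108, 84.4 and 115 with both agents. Of 54 amino acid transporters 1 fell, amino acid permease 7 (14G010300), by 0.64 (SE 0.14, adjusted p = 0.0474), a call that passed in 3 of 12 fits (adjusted p up to 0.159).

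**Figure D2:**
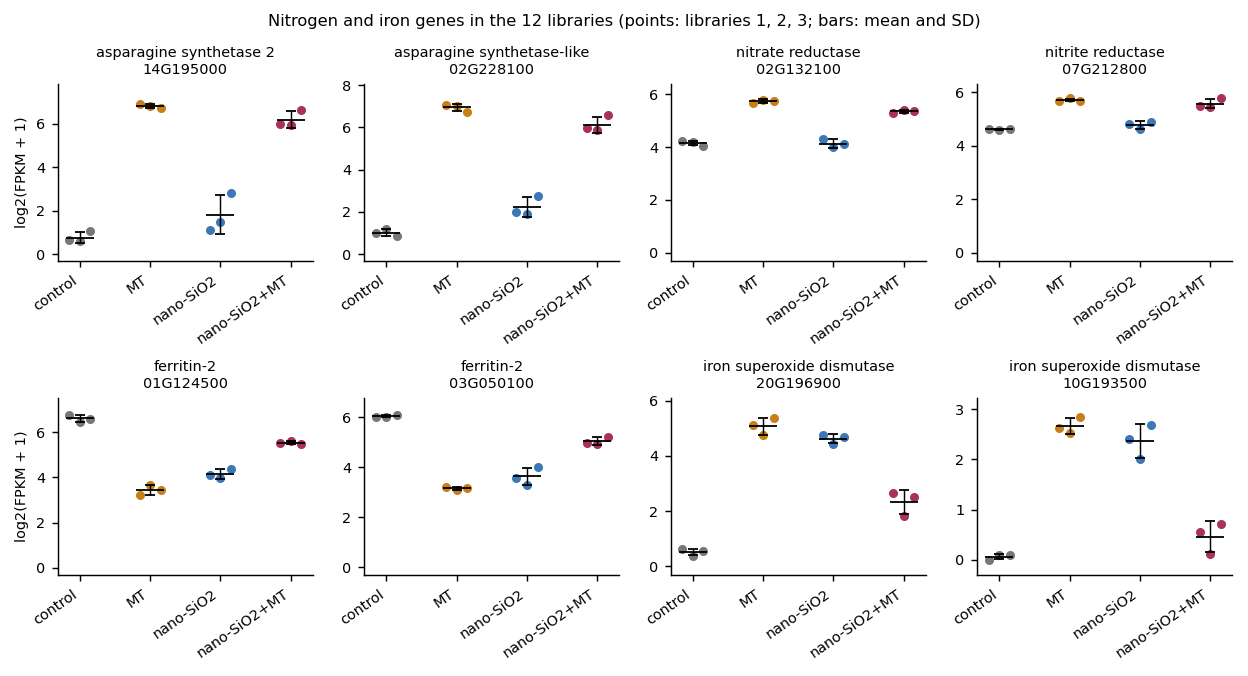
Log2(FPKM + 1) of 8 nitrogen and iron genes (vertical axes) in the 12 libraries by group; points are libraries 1 to 3 and bars the mean and SD. Asparagine synthetase 2 sits at 60.01 to 100.1 FPKM in the nano-SiO2+MT libraries against 1.17 to 6.09 with nano-SiO2, and the iron superoxide dismutase 20G196900 at 2.52 to 5.27 against 20.7 to 26.0.

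Of 8 tested ferritins 4 were called higher and none lower, beside 0.308% higher among all genes, and the list median was 1.17 above that of all genes. Ferritin-2 (01G124500) went from 16.1, 14.6 and 19.95 to 44.3, 48.5 and 43.8 FPKM, a difference of 1.39 (SE 0.15, adjusted p = 0.000856). A second ferritin-2 gene (03G050100) went from 10.98, 8.85 and 14.9 to 30.6, 29.1 and 36.4 FPKM, a difference of 1.42 (SE 0.16, adjusted p = 0.00114). Ferritin-1 (07G155200) rose by 1.13 (SE 0.16, adjusted p = 0.0053) and 18G205800, chosen after its values were seen, by 1.19 (SE 0.17, adjusted p = 0.00661). The groups did not overlap for any of the 4, as for every called gene and for 3.46% of all tested genes in the upward direction. Ferritin-3 (11G232600), also chosen after its values were seen, at 234, 247 and 197 FPKM with nano-SiO2 and 247, 210.1 and 226 with both agents, was the most abundant ferritin and its difference was 0.02 (SE 0.13, adjusted p = 0.951). Between 4 and 5 ferritins were called in the fits with 1 library left out.

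Most tested ferritins fell when melatonin was given without nano-SiO2. Ferritin-2 (01G124500) stood at 108, 87.7 and 96.2 FPKM in the control and 8.24, 11.6 and 9.74 with MT, a fall of 3.19 (SE 0.15, adjusted p = 1.43e-07). Of the 8 ferritins 5 were lower and none higher in MT against control, where 3.35% of all genes were called (1.66% higher, 1.69% lower). The interaction was called for 5 of the 8, beside 0.524% of all genes (0.12% positive, 0.403% negative). It was 4.58 (SE 0.21, adjusted p = 1.75e-07) for 01G124500 and 4.31 (SE 0.22, adjusted p = 5.08e-07) for 03G050100. The nano-SiO2+MT libraries thus held an intermediate level of 01G124500, below the control mean of 97.2 ± 10.1 FPKM (SD, n = 3) and above the means of nano-SiO2 (16.9 ± 2.79) and MT (9.85 ± 1.67). The ranges of the 4 groups did not overlap for this gene, the closest being MT, with 11.6 FPKM as its highest value, and nano-SiO2, with 14.6 as its lowest.

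Of 5 tested iron superoxide dismutase genes 2 fell (40%, beside 1.22% of all genes) and none rose. The gene 20G196900 stood at 26.02, 20.7 and 24.6 FPKM with nano-SiO2 and 5.27, 2.52 and 4.68 with both agents, a difference of -2.30 (SE 0.21, adjusted p = 0.000367). The gene 10G193500 stood at 4.35, 3.01 and 5.402 FPKM with nano-SiO2 and 0.459, 0.0797 and 0.629 with both agents, a difference of -1.91 (SE 0.19, adjusted p = 0.000397). Both calls were kept, and the other 3 of the 5 tested genes of this enzyme were not called, at 0.709 to 4.40 FPKM in the nano-SiO2 libraries. Without nano-SiO2, melatonin went with higher values: 20G196900 was at 0.535, 0.301 and 0.473 FPKM in the control and 33.4, 26.05 and 40.3 with MT, a difference of 4.56 (SE 0.21, adjusted p = 1.43e-07). Its interaction of -6.86 (SE 0.29, adjusted p = 1.48e-07) had the smallest p of all tested genes, and that of 10G193500 was -4.52 (SE 0.26, adjusted p = 1.25e-06). All 6 libraries of the 2 single sprays lay above 20 FPKM for 20G196900, all nano-SiO2+MT libraries below 6 FPKM and all control libraries below 1 FPKM. None of the 5 copper/zinc superoxide dismutase genes was called; the most abundant, 12G081300, stood at 156, 191 and 143 FPKM with nano-SiO2 and 194, 231 and 160.1 with both agents.

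Metal transporters gave 4 falls and no rise among 73 tested genes (5.48% lower, beside 1.22% of all genes), with a median of -0.0817 relative to all genes (-0.0475 without nano-SiO2 2). Nramp2a (05G101700), of a family that carries iron and manganese ions, was at 7.98, 8.12 and 8.04 FPKM with nano-SiO2 and 3.82, 4.31 and 4.13 with both agents, a kept fall of 0.83 (SE 0.11, adjusted p = 0.00407). A gene described as the ferrous ion transporter DMT1 (17G165200) fell by 1.05 (SE 0.19, adjusted p = 0.0174), and zinc transporter 10-like (07G223200) by 0.71 (SE 0.14, adjusted p = 0.0254). The DMT1 call was lost without nano-SiO2 2 or nano-SiO2+MT 1 (adjusted p up to 0.0893), and the zinc transporter call without nano-SiO2 1 or 2 or nano-SiO2+MT 1 or 2 (adjusted p up to 0.121). Both Nramp2a and DMT1 rose with MT alone, by 0.70 (SE 0.11, adjusted p = 0.0036) and 1.90 (SE 0.19, adjusted p = 0.000102), and their interactions were called (-1.53 and -2.95). One to 4 of the list fell in the fits with 1 library left out, with 1 when nano-SiO2 2 or nano-SiO2+MT 1 was absent.

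Some genes of triterpene saponin and sterol synthesis fell. Soybean saponins are sugar-decorated triterpenes built from the mevalonate pathway through squalene and beta-amyrin. Of 53 tested genes on this list 10 were lower (18.9%, beside 1.22% of all genes), none was higher and 43 were not called. The median was -0.211 relative to all genes. The list was drawn up after values had been seen, so these counts describe it and support nothing further. At the mevalonate step the hydroxymethylglutaryl-CoA synthases 01G215500 and 11G027000, chosen after their values were seen, fell by 1.53 (SE 0.26, adjusted p = 0.0126) and 1.44 (SE 0.24, adjusted p = 0.0115). Squalene monooxygenase (07G185500), which oxidises squalene before cyclisation, went from 10.1, 11.3 and 6.83 to 3.13, 2.67 and 2.27 FPKM, a difference of -1.48 (SE 0.18, adjusted p = 0.00241). Beta-amyrin synthase (07G001300), the enzyme that closes the rings, also chosen after its values were seen, stood at 38.3, 37.7 and 26.8 FPKM with nano-SiO2 and 17.5, 10.99 and 13.9 with both agents, a difference of -1.22 (SE 0.21, adjusted p = 0.0147). Of the glycosyltransferases that add the sugars, soyasaponin III rhamnosyltransferase (08G181000) went from 21.2, 14.3 and 14.5 to 7.32, 5.06 and 5.05 FPKM (log2 difference -1.37, SE 0.18, adjusted p = 0.00408), and soyasapogenol B glucuronide galactosyltransferase (11G053400) from 19.1, 13.2 and 11.1 to 5.93, 4.31 and 4.11 (log2 difference -1.40, SE 0.19, adjusted p = 0.00408). In each of these genes, as in every called gene that fell, the highest nano-SiO2+MT library was below the lowest nano-SiO2 library. Of all tested genes 19.5% were separated downward in this way. The calls of 07G185500, 08G181000 and 11G053400 were kept.

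The remaining saponin calls leaned on single libraries. Without nano-SiO2 2 the list had 3 falls, without nano-SiO2 1 it had 4, and without nano-SiO2 3 it had 14. Loss of the calls for 01G215500 and 07G001300 followed the omission of nano-SiO2 1 or 2, with adjusted p up to 0.0723 and 0.0749, and 07G001300 also lost its call without nano-SiO2+MT 2. The call for 11G027000 was lost without nano-SiO2 2 (adjusted p up to 0.0684). After median-ratio scaling 8 of the list were lower. In MT against control none of the 53 was called in either direction, and no interaction was called either, so a difference between the settings with and without nano-SiO2 was not shown for any single gene. The nano-SiO2 libraries were the highest of the 4 groups for beta-amyrin synthase: the mean of 07G001300 was 19.1 ± 4.03 FPKM in the control, 17.5 ± 3.41 with MT, 34.2 ± 6.47 with nano-SiO2 and 14.1 ± 3.26 with both agents (SD, n = 3).

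A pair of cellulose synthase-like genes of subgroup G were among the 12 largest falls. Cellulose synthase-like protein G1 (06G324300) went from 16.1, 15.4 and 9.69 to 4.25, 2.83 and 2.95 FPKM, a kept fall of 1.75 (SE 0.23, adjusted p = 0.00408). Cellulose synthase-like protein G2 (04G255400) went from 27.7, 27.4 and 15.5 to 8.43, 4.796 and 6.47 FPKM, a fall of 1.68 (SE 0.26, adjusted p = 0.00933), a call lost without nano-SiO2 2 (adjusted p up to 0.0559). Members of this subgroup are known in legumes for attaching glucuronic acid to the saponin core.

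**Figure D3:**
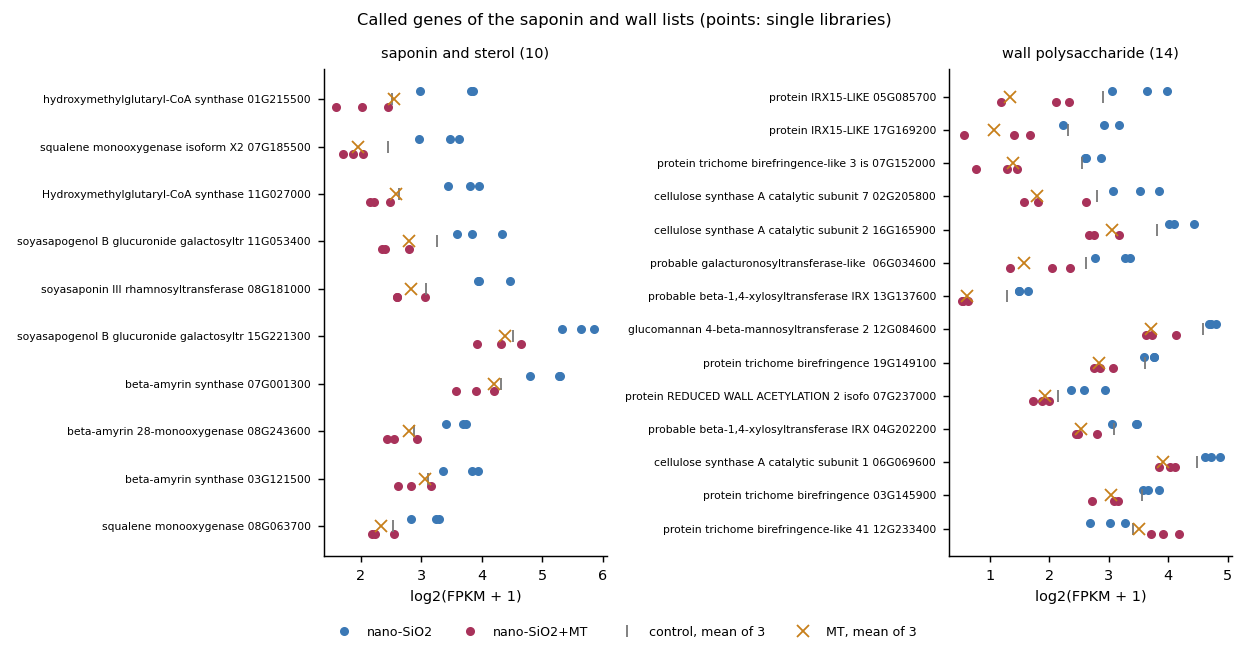
Log2(FPKM + 1) (horizontal axes) of the 10 called genes of saponin and sterol synthesis (left) and the 14 called genes of wall polysaccharide synthesis (right); points are single libraries of nano-SiO2 and nano-SiO2+MT, and marks give the control and MT means of 3. All but trichome birefringence-like 41 (12G233400, 0.94) lie lower with both agents than with nano-SiO2.

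Some genes of the secondary wall and of wall polysaccharides fell, in calls that were lost without nano-SiO2 2 or nano-SiO2+MT 1. Of 39 tested xylem and secondary wall genes, 6 fell (15.4%, beside 1.22% of all genes), none rose and 33 were not called, with a median of -0.557 relative to all genes. Of 137 wall polysaccharide genes 13 fell (9.49%), 1 rose (0.73%, beside 0.308% of all genes) and 123 were not called. That list was also drawn up after values had been seen and is given as a description. Both lists hold the IRX15-LIKE genes. The IRX15-LIKE gene 05G085700, of a family needed for xylan in woody walls in Arabidopsis, went from 7.28, 11.5 and 14.8 to 1.29, 3.32 and 4.01 FPKM, a difference of -1.68 (SE 0.31, adjusted p = 0.0234). Cellulose synthase A2 (16G165900) went from 16.1, 20.6 and 15.1 to 5.71, 5.33 and 7.997 FPKM, a difference of -1.32 (SE 0.22, adjusted p = 0.0133). Glucomannan 4-beta-mannosyltransferase 2 (12G084600), which makes the mannan backbone, went from 24.7, 26.96 and 25.3 to 11.3, 16.5 and 12.2 FPKM, a difference of -0.91 (SE 0.15, adjusted p = 0.0109). Laccase-4 (14G191500), of the family that polymerises lignin units, fell by 0.97 (SE 0.21, adjusted p = 0.0402), a second laccase-4 (14G062300) by 1.66 (SE 0.36, adjusted p = 0.0459), fasciclin-like arabinogalactan protein 11 (03G180000) by 1.22 (SE 0.24, adjusted p = 0.0274) and the second IRX15-LIKE gene (17G169200) by 1.56 (SE 0.29, adjusted p = 0.0229). The single rise was trichome birefringence-like 41 (12G233400), of a family of wall acetyltransferases, from 5.41, 8.73 and 7.16 to 12.2, 17.2 and 14.1 FPKM.

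None of these wall calls was kept through every left-out library. Both lists had no fall at all without nano-SiO2 2 and without nano-SiO2+MT 1, and up to 12 and 20 falls without others. Calls that passed in some fits had adjusted p up to 0.0993 for 05G085700, 0.0725 for 16G165900 and 0.0647 for 12G084600. Laccase-4 passed in 5 (14G191500) and 2 (14G062300) of 12 fits, fasciclin-like protein 11 in 8 and 17G169200 in 9. The summed FPKM of the 86 xylem and secondary wall genes was 215.1 to 470.8 in the nano-SiO2 libraries and 74.39 to 210.2 in the nano-SiO2+MT libraries, which did not overlap. In the control it was 177.6 to 291.3 and with MT 69.81 to 103.7, and in MT against control 11 of the 39 were lower, beside 1.69% of all genes. In whole leaf samples fewer vascular cells and less RNA of these genes per cell cannot be told apart. Phloem markers summed to 272.1 to 286.4 with nano-SiO2 and 239.9 to 275.0 with both agents, with none of 15 called; the part of vascular tissue in the wall result was not tested.

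Phenylpropanoid genes, which make the units of lignin, gave 4 falls and no rise among 60 (6.67% lower, beside 1.22% of all genes). 4-coumarate--CoA ligase 2 (01G232400) went from 44.7, 43.9 and 41.00 to 21.3, 27.3 and 25.03 FPKM, a difference of -0.80 (SE 0.13, adjusted p = 0.00933), lost without nano-SiO2+MT 1 (adjusted p up to 0.058). A caffeic acid 3-O-methyltransferase-like gene (04G227700) went from 46.9, 57.1 and 60.2 to 13.1, 19.03 and 26.3 FPKM, a difference of -1.49 (SE 0.25, adjusted p = 0.0147), lost without nano-SiO2 2 or nano-SiO2+MT 1 (adjusted p up to 0.0725). Cinnamate 4-monooxygenase (14G205200), the enzyme of the second step, fell by 0.80 (SE 0.16, adjusted p = 0.0302) and passed in 6 of 12 fits (adjusted p up to 0.158). After median-ratio scaling 1 of the 60 was lower, and without nano-SiO2+MT 1 none was.

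Flavonoid and isoflavonoid genes gave 6 falls and no rise among 78 (7.69% lower, beside 1.22% of all genes), while the list median lay at -0.0336 relative to all genes (-0.0764 without nano-SiO2 2). Isoflavone reductase homolog 2 (04G012300) went from 47.6, 50.2 and 86.5 to 17.3, 22.2 and 27.8 FPKM, a difference of -1.39 (SE 0.23, adjusted p = 0.0115), lost without nano-SiO2+MT 1 (adjusted p up to 0.0655), and its interaction was -1.95 (SE 0.32, adjusted p = 0.0138). Flavonol synthase (13G082300) went from 65.9, 60.5 and 52.1 to 31.7, 36.2 and 34.8 FPKM and chalcone synthase J (19G105100), which makes the first flavonoid skeleton, from 142, 105 and 106 to 59.2, 74.3 and 63.96 FPKM. Their differences were -0.77 (SE 0.14, adjusted p = 0.0202) and -0.82 (SE 0.16, adjusted p = 0.0241), with adjusted p up to 0.112 and 0.127 when 1 library was left out. One gene of this list was lower after median-ratio scaling, and without nano-SiO2+MT 1 none was. The copper enzyme GLOX1 (04G026400), an aldehyde oxidase, was the third largest fall, from 21.7, 30.2 and 19.6 to 5.24, 3.69 and 5.58 FPKM, a kept difference of -2.08 (SE 0.18, adjusted p = 0.000367). It also fell with MT alone, by 2.52 (SE 0.18, adjusted p = 6.58e-06). Of 27 class III peroxidases 1 fell, peroxidase A2 (19G148800), from 2.78, 3.18 and 1.79 to 0.0737, 0.0745 and 0.595 FPKM, a kept difference of -1.53 (SE 0.21, adjusted p = 0.00408).

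Starch and sugar genes changed singly. Beta-amylase (06G301500), which releases maltose from starch, went from 75.9, 64.5 and 94.3 to 29.3, 35.8 and 30.9 FPKM, a kept difference of -1.25 (SE 0.16, adjusted p = 0.00376). With MT alone its difference was 0.05 (SE 0.16, adjusted p = 0.93), and the interaction was -1.30 (SE 0.23, adjusted p = 0.0209). The large subunit of ADP-glucose pyrophosphorylase (11G116600), which supplies the starch precursor, rose from 11.7, 14.2 and 15.5 to 26.9, 20.5 and 30.7 FPKM (log2 difference 0.86, SE 0.20, adjusted p = 0.0486; passed in 3 of 12 fits, adjusted p up to 0.196). These were the only 2 called of the 60 tested genes on the starch list. That is 1.67% in each direction, beside 0.308% higher and 1.22% lower among all genes. A plastid glucan phosphorylase gene that the list did not hold also fell, in a kept call. It was chosen after its values were seen and is described under the other observations. An acid beta-fructofuranosidase (17G138500), a sucrose-splitting invertase, fell from 78.4, 63.1 and 56.01 to 30.01, 29.6 and 33.2 FPKM (log2 difference -1.05, SE 0.18, adjusted p = 0.0147), and the sugar exporter SWEET40 (15G149800) and a sucrose transporter (10G217900) fell by 0.76 (SE 0.15, adjusted p = 0.0246) and 0.69 (SE 0.14, adjusted p = 0.0302). None of the 3 was called without nano-SiO2 1 or 2 or nano-SiO2+MT 1 or 2, with adjusted p up to 0.0748, 0.112 and 0.113 over the left-out libraries.

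Photosynthesis genes as single genes did not pass. None of 35 light-harvesting antenna genes, 41 photosystem and electron transport genes and 25 Calvin cycle genes was called in either direction. Antenna differences were positive for 32 of 35 with a median of 0.288, and photosystem differences for 31 of 41 with a median of 0.259, where 74.6% of all tested genes had a negative difference. Relative to all genes the antenna median was 0.436 as deposited, 0.472 after median-ratio scaling and 0.127 after quantile normalization, and the photosystem median 0.407, 0.445 and 0.155. The Calvin cycle median of 0.168 relative to all genes became -0.00173 after quantile normalization. The most abundant antenna gene (05G128000) stood at 4484, 2854 and 4563 FPKM with nano-SiO2 and 5994, 5946 and 4649.9 with both agents, a difference of 0.50 (SE 0.23, adjusted p = 0.268). Rubisco small chain 4 (19G046800) stood at 11377, 4299.5 and 10802 FPKM with nano-SiO2 and 14280.0, 17138 and 11637 with both agents, a difference of 0.81 (SE 0.34, adjusted p = 0.237), with nano-SiO2 2 by itself far below the others of its group. Plastocyanin (04G020300) was at 1987, 1679.6 and 1736 FPKM with nano-SiO2 and 2480.3, 2562 and 1905 with both agents (log2 difference 0.35, SE 0.18, adjusted p = 0.302). Without nano-SiO2 2 the antenna median was 0.357 and the photosystem median 0.389 relative to all genes, and again no antenna or photosystem gene was called. Without nano-SiO2 1, 2 photosystem genes were higher.

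The list of chlorophyll breakdown and senescence genes gave 2 falls and no rise among 28 (7.14% lower, beside 1.22% of all genes). Senescence-associated nodulin 1A (07G209100) went from 16.02, 22.6 and 19.9 to 7.53, 5.42 and 7.47 FPKM, a kept difference of -1.39 (SE 0.16, adjusted p = 0.00178), while it rose with MT alone by 0.70 (SE 0.16, adjusted p = 0.0336), and the interaction was -2.09 (SE 0.23, adjusted p = 0.000574). STAY-GREEN (17G132900), which removes magnesium from chlorophyll as leaves senesce, went from 2.16, 1.51 and 1.07 to 0.499, 0.226 and 0.264 FPKM (log2 difference -0.94, SE 0.17, adjusted p = 0.0202). It reached 1 FPKM only in the nano-SiO2 libraries, so no fit without a nano-SiO2 library tested it, and its dependence on those libraries is unknown. It thus passed the filter only through the group where it is high. Its call and its place among the 2 falls are given as a description only. It passed in 8 of the 9 left-out fits that tested it (lost without nano-SiO2+MT 2, adjusted p 0.0667). Vegetative storage proteins, leaf proteins in which soybean stores nitrogen, were not called. Stem 31 kDa glycoprotein (07G014500) stood at 179, 109 and 156 FPKM with nano-SiO2 and 111, 139 and 98.7 with both agents, with overlapping libraries, though its interaction was -2.48 (SE 0.30, adjusted p = 0.00105): with MT alone it rose by 2.15 (SE 0.21, adjusted p = 0.000102).

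Lipoxygenases add oxygen to polyunsaturated fatty acids, and 3 of 22 fell (13.6%, beside 1.22% of all genes) with none higher. Lipoxygenase-10 (08G189600) went from 2.77, 3.17 and 2.14 to 0.291, 0.426 and 0.577 FPKM, a kept difference of -1.36 (SE 0.19, adjusted p = 0.00451). The lipoxygenase 13G347800 went from 5.77, 4.74 and 5.97 to 2.05, 1.27 and 1.95 FPKM (log2 difference -1.24, SE 0.22, adjusted p = 0.0185), lost without nano-SiO2 1 or 2 or nano-SiO2+MT 1 or 2 (adjusted p up to 0.0645). The abundant linoleate 9S-lipoxygenase-4 (15G026500) went from 313, 267 and 239.9 to 141, 87.4 and 136 FPKM (log2 difference -1.19, SE 0.25, adjusted p = 0.0404; passed in 3 of 12 fits, adjusted p up to 0.124). Of 32 jasmonate synthesis and JAZ genes, 31 had negative differences, as did 74.6% of all tested genes, with a median of -0.285 relative to all genes (-0.184 without nano-SiO2 2). The 3 that were called, allene oxide cyclase 3 (13G047300), TIFY 6A (05G235500) and a CCT and tify domain gene (17G043700), fell by 0.81, 0.64 and 0.86 at adjusted p of 0.0439, 0.043 and 0.0459. None of the 3 calls passed after median-ratio scaling or without nano-SiO2 2, with adjusted p up to 0.18 for the first.

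Protease inhibitors moved in both directions. The Kunitz-type inhibitor KTI1-like (08G341700), of a family that blocks trypsin-like proteases in seeds and wounded leaves, went from 1.66, 2.43 and 2.34 to 9.05, 12.2 and 13.3 FPKM, a kept difference of 1.99 (SE 0.20, adjusted p = 0.000635). Its neighbour by identifier, 08G341600, went from 3.98, 6.199 and 6.598 to 14.9, 17.7 and 16.8 FPKM, a kept difference of 1.43 (SE 0.21, adjusted p = 0.00642). Trypsin inhibitor A (01G095232) rose by 1.27 (SE 0.20, adjusted p = 0.00965), a call lost without nano-SiO2 2 (adjusted p up to 0.0539). All 3 rose with MT alone too, by 1.26, 1.24 and 1.62. These genes came from the seed and pod marker list, in which 3 of 11 rose and 2 fell (27.3% and 18.2%, beside 0.308% and 1.22% of all genes). Lower were the Kunitz genes 09G155500 and 16G211700, chosen after their values were seen, at -1.65 and -1.58. The falls were not called without nano-SiO2 2 (adjusted p up to 0.118 and 0.0613). The 34 genes of the seed and pod list summed to 110.4 to 149.5 FPKM with nano-SiO2 and 141.6 to 158.4 with both agents, with none at 0 in every library.

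Wall loosening genes gave 4 rises and 2 falls among 100 (4% higher, beside 0.308% of all genes, and 2% lower, beside 1.22%). Expansin-A8 (18G054000), a protein that loosens walls in growing cells, stood at 1.003, 1.37 and 1.28 FPKM with nano-SiO2 and 10.3, 52.4 and 5.45 with both agents, a difference of 2.83 (SE 0.58, adjusted p = 0.0365). Outside the list, pectate lyase 18 (17G126500), which cuts pectin, stood at 1.503, 0.929 and 1.27 FPKM with nano-SiO2 and 8.77, 21.6 and 2.84 with both agents (log2 difference 2.09, SE 0.46, adjusted p = 0.0459), the uncharacterized 17G208200 at 0.866, 0.9595 and 0.627 FPKM with nano-SiO2 and 20.5, 52.05 and 4.74 with both agents (log2 difference 3.37, SE 0.58, adjusted p = 0.0177), and the hypothetical 11G160000 at 0.184, 0.115 and 0.5097 FPKM with nano-SiO2 and 7.19, 34.95 and 2.36 with both agents (log2 difference 2.98, SE 0.61, adjusted p = 0.0361). In Expansin-A8 and these 3 genes nano-SiO2+MT 2 was highest, and the groups did not overlap, as for every called gene. The numbers of the 12 fits in which they passed were 5, 2, 9 and 5, with adjusted p up to 0.117, 0.169, 0.081 and 0.13. Control means were 14.6, 14.8, 24.6 and 6.12 FPKM, above the nano-SiO2 values. Of the other rises on the list, xyloglucan endotransglucosylase/hydrolase 9 (13G304400) rose by 0.81 (SE 0.16, adjusted p = 0.0301), a second gene of that description (12G197600) by 0.73 (SE 0.15, adjusted p = 0.0352) and the polygalacturonase 08G285400 by 1.22 (SE 0.25, adjusted p = 0.0325), and they passed in 7, 5 and 5 of 12 fits (adjusted p up to 0.119, 0.137 and 0.158). The number of rises on this list was 12 without nano-SiO2+MT 3 and 0 without nano-SiO2 2 or 3.

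Hormone, salt and stress lists held few calls, where 0.308% of all genes were higher and 1.22% lower. Among 38 gibberellin genes 2 rose and 2 fell (5.26% in each direction). Gibberellin 20-oxidase 1 (09G149200), of the enzyme that makes active gibberellin precursors, rose from 2.88, 3.15 and 3.01 to 6.21, 6.47 and 4.76 FPKM (log2 difference 0.75, SE 0.13, adjusted p = 0.0141), and gibberellin 2-beta-dioxygenase (13G218200), of the enzyme that inactivates them, fell from 4.32, 2.997 and 3.48 to 1.35, 1.04 and 1.605 (log2 difference -0.98, SE 0.16, adjusted p = 0.0115). A second gibberellin 20 oxidase 1 (02G136000) fell by 0.59 (SE 0.13, adjusted p = 0.0442) with a called interaction of -1.85. The first 2 calls were lost without nano-SiO2 1 or nano-SiO2+MT 1, and that of 09G149200 also without nano-SiO2+MT 2 (adjusted p up to 0.0811 and 0.0539). The third passed in 2 of 12 fits (adjusted p up to 0.196). Cytokinin dehydrogenase 6 (09G225400), which breaks down cytokinins, fell by 0.95 (SE 0.16, adjusted p = 0.0129) as 1 of 36 cytokinin genes, with adjusted p up to 0.0704. Of 140 auxin response genes 1 rose and 2 fell, with the influx carrier auxin transporter-like 1 (02G255800) at -0.83 (SE 0.16, adjusted p = 0.0254), IAA11 (13G127000) at -0.60 (SE 0.13, adjusted p = 0.0459) and an auxin-repressed gene (20G237200) at 1.04 (SE 0.24, adjusted p = 0.0486), with adjusted p up to 0.108, 0.206 and 0.209 without 1 library.

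Ion transport genes gave 1 rise and 2 falls among 112 (0.893% higher, beside 0.308% of all genes, and 1.79% lower, beside 1.22%). The sodium/hydrogen exchanger 1 gene (20G229900), of the vacuolar carrier that sequesters sodium, went from 12.1, 16.9 and 13.02 to 6.67, 8.31 and 9.07 FPKM (log2 difference -0.73, SE 0.15, adjusted p = 0.0357). The potassium channel AKT1 (05G010600) fell by 0.52 (SE 0.11, adjusted p = 0.0367) and the chloride channel CLC-b (19G089800), at 0.167, 0.189 and 0.376 FPKM with nano-SiO2 and 0.662, 1.18 and 1.502 with both agents, rose by 0.75 (SE 0.17, adjusted p = 0.0463). These 3 passed in 5, 2 and 1 of 12 fits, with adjusted p up to 0.179, 0.123 and 0.154. Of 45 proline and osmolyte genes 2 were called, a trehalose-phosphate synthase (10G270800) at -0.64 (SE 0.14, adjusted p = 0.0454) and a galactinol-sucrose galactosyltransferase (17G111400) at 0.59 (SE 0.13, adjusted p = 0.0483), which passed in 3 and 1 of 12 fits (adjusted p up to 0.197 and 0.194). None of 32 aquaporins, 6 dehydrins and LEA proteins, 44 abscisic acid genes, 99 ethylene genes, 81 WRKY factors and 38 ascorbate, glutathione, catalase and peroxiredoxin genes was called. The most abundant members of the catalase, aquaporin and abscisic acid lists lay at overlapping levels. Catalase (06G017900) stood at 687, 858 and 826 FPKM with nano-SiO2 and 786, 774 and 823 with both agents. Aquaporin PIP1 (14G061500) stood at 334, 341 and 413 with nano-SiO2 and 294, 341 and 365 with both agents. Zeaxanthin epoxidase (17G174500) stood at 413, 375 and 463 with nano-SiO2 and 449, 382 and 499 with both agents. Values of the dehydrin, ethylene and WRKY members are not printed here. Serotonin N-acetyltransferase 2 (02G126500), of the melatonin pathway itself, stood at 8.36, 5.76 and 10.3 FPKM with nano-SiO2 and 11.6, 12.8 and 9.598 with both agents, a difference of 0.46 (SE 0.25, adjusted p = 0.33), and none of the 3 tested genes of that pathway was called. Of 78 heat shock genes 2 fell, of 51 NAC factors 1, of 51 phosphate genes 2 and of 255 cytosolic ribosomal protein genes 1. In that order these are 2.56%, 1.96%, 3.92% and 0.392%, beside 1.22% of all genes. Of the genes called on these 4 lists, 13G161900, described as a purple acid phosphatase, an enzyme that frees phosphate, kept its call, going from 89.2, 72.4 and 61.2 to 30.5, 25.3 and 24.02 FPKM (log2 difference -1.44, SE 0.19, adjusted p = 0.00408).

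**Figure D4:**
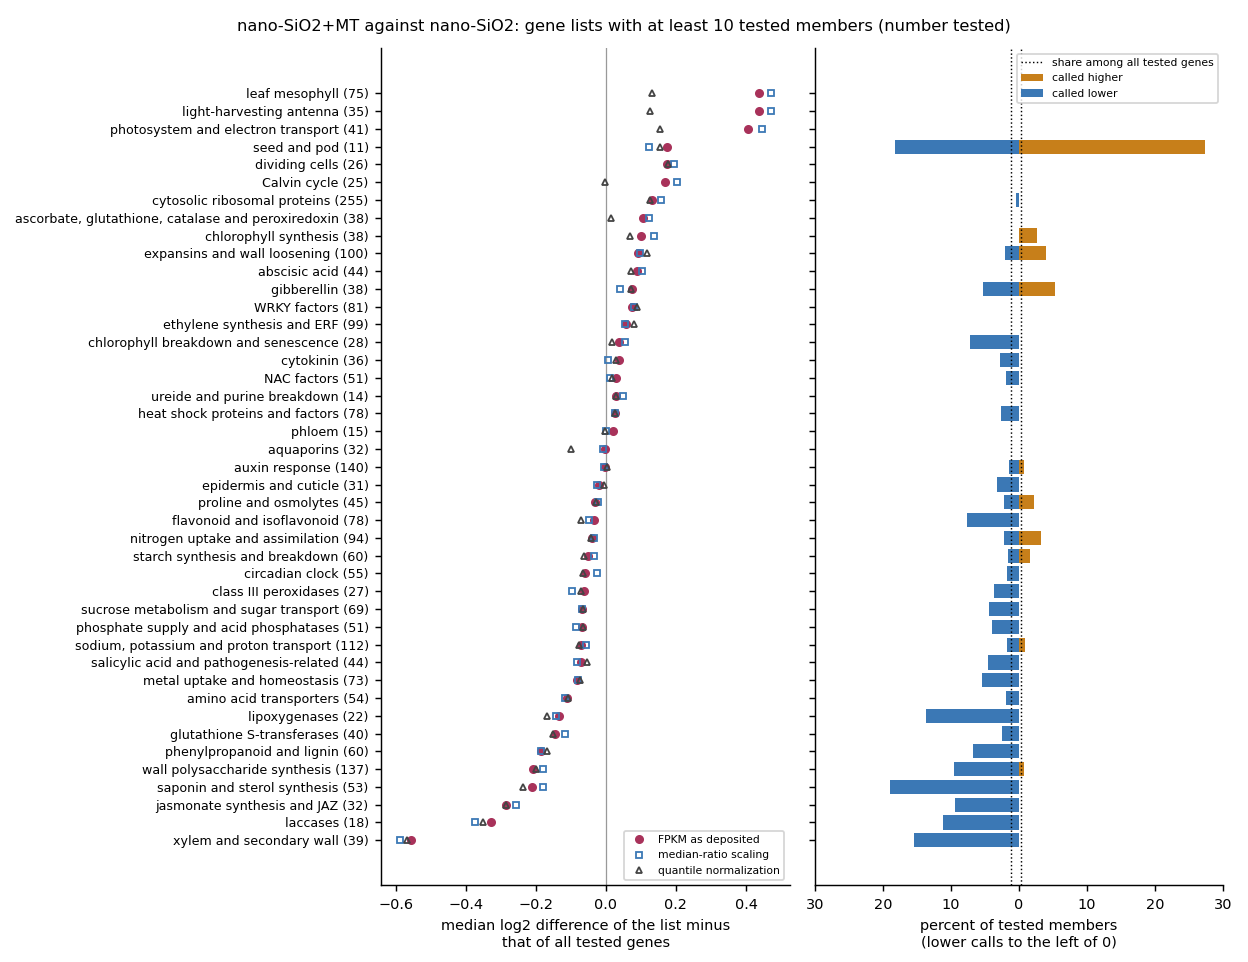
Gene lists with at least 10 tested members (number in brackets): left, the median log2 difference of the list minus that of all genes for 3 scalings; right, the percent of members called higher or lower, with dotted lines at the shares among all genes (0.308% and 1.22%). Xylem and secondary wall genes lie lowest at -0.557, and mesophyll markers and antenna genes highest at 0.436 each, where quantile normalization gives 0.133 and 0.127.

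Melatonin was also given without nano-SiO2, and the difference between MT and control has no library in common with that between nano-SiO2+MT and nano-SiO2, though both come from the same fit. MT against control called 948 genes (3.35%), 470 higher and 478 lower. The 2 comparisons shared 152 called genes, 35.2% of those called with nano-SiO2 and 16% of those called without. Of these, 44 were higher in both, 81 lower in both and 27 opposite. Among the 432 genes called with nano-SiO2, 337 (78%) had the same sign without it, where 63.5% of all tested genes did. Pearson's r over the tested genes was 0.296, a description only, since genes of 1 library share its scaling and are not independent. The difference between the 2 melatonin effects was called for 148 genes (0.524%), 34 positive and 114 negative, and for 56 of the 432 (13%). Leaving out nano-SiO2 2 gave 102 such genes.

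The 27 genes with opposite calls were all called in the interaction as well. Their selection made this likely, since the interaction is the difference of the same 2 effects. Lower with melatonin on nano-SiO2 and higher without it were 22, among them the iron superoxide dismutases, Nramp2a and senescence-associated nodulin 1A. Among undescribed genes of this kind, 02G282300 stood at 19.5 ± 2.86 FPKM in the control, 296 ± 50.4 with MT, 81.3 ± 23.7 with nano-SiO2 and 23.2 ± 6.38 with both agents (SD, n = 3), and 14G032000 at 16.9 ± 2.89, 137 ± 11.7, 47.3 ± 5.94 and 12.1 ± 5.37 FPKM in the same order. The uncharacterized 05G011200 followed at 10.6 ± 1.33, 104 ± 19.5, 28.4 ± 2.98 and 13.97 ± 2.21 FPKM. Higher with melatonin on nano-SiO2 and lower without it were 5 genes, 4 of them the ferritins described above and the other flowering-promoting factor 1 (04G074800, 1.33 with nano-SiO2 and -0.90 without), chosen after its values were seen. The nitrate and nitrite reductases, by contrast, had no called interaction, at -0.36 (SE 0.16, adjusted p = 0.578) and -0.31 (SE 0.17, adjusted p = 0.67).

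**Figure D5:**
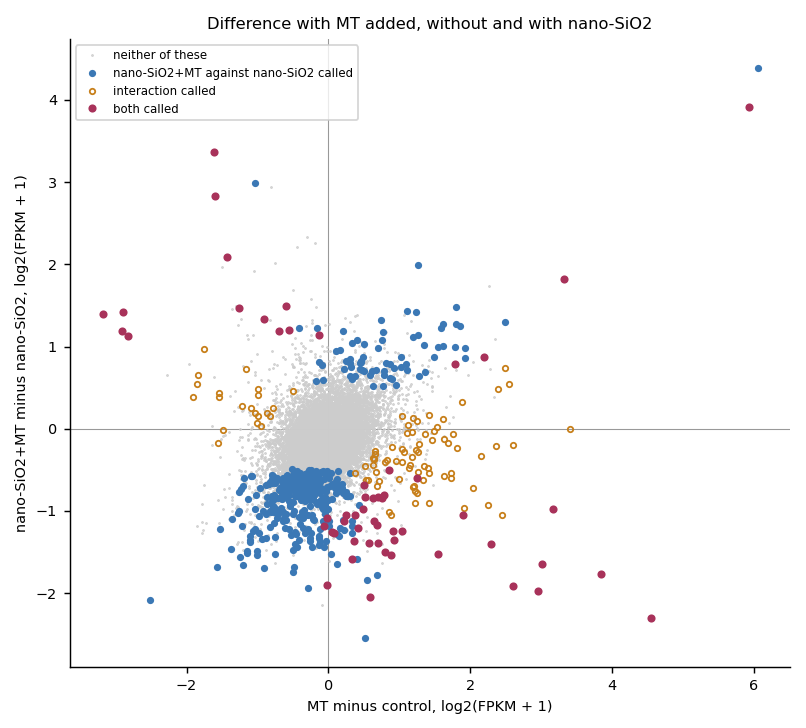
Each point is 1 of 28260 tested genes, at its MT minus control difference (horizontal, log2(FPKM + 1)) and its nano-SiO2+MT minus nano-SiO2 difference (vertical, same scale). Asparagine synthetases lie at the upper right (6.05 and 4.39 for 14G195000), ferritins at the upper left (-3.19 and 1.39 for 01G124500) and the iron superoxide dismutase 20G196900 at the lower right (4.56 and -2.30).

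Other large changes had no role that the descriptions give or fell outside the lists. Among the 12 largest rises were the uncharacterized 08G220000, from 12.7, 17.5 and 18.7 to 53.7, 35.7 and 52.6 FPKM (log2 difference 1.48, SE 0.21, adjusted p = 0.00493, kept), and glycine-rich protein 2 (04G252100), from 8.82, 6.997 and 12.5 to 27.6, 28.02 and 23.9 (log2 difference 1.43, SE 0.27, adjusted p = 0.0231; lost without nano-SiO2 1 or 2 or nano-SiO2+MT 1 or 2, adjusted p up to 0.106). Among the 12 largest falls were the hypothetical 06G170300, from 75.05, 65.98 and 46.9 to 16.2, 11.4 and 15.3 FPKM (log2 difference -2.04, SE 0.25, adjusted p = 0.00241, kept), and the uncharacterized 08G230400, from 50.8, 64.5 and 37.8 to 21.1, 11.3 and 13.3 (log2 difference -1.69, SE 0.28, adjusted p = 0.0113; lost without nano-SiO2 2, adjusted p up to 0.0668). Enzymes that reduce or oxidise small carbonyl compounds were in that set too. Mannitol dehydrogenase (01G021000) stood at 8.55, 8.896 and 1.51 FPKM with nano-SiO2 and 0, 0.0783 and 0.105 with both agents, an adjusted p of 0.0198 that rose to 0.0947 without nano-SiO2 1 or 2 or nano-SiO2+MT 1 or 2. 2-methylene-furan-3-one reductase (19G008500) fell by 1.94 (SE 0.35, adjusted p = 0.0204) and 2-alkenal reductase (03G098600) by 1.78 (SE 0.36, adjusted p = 0.0352), passing in 10 and 4 of 12 fits with adjusted p up to 0.0739 and 0.15. Of the 432 called genes, 98 had no description beyond hypothetical or uncharacterized.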

How the data were processed

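RNA of soybean leaves was measured in 12 libraries, 4 groups of 3. The authors deposited FPKM values, as the file headers call them, of 46446 genes in each library, 606 of them at 0 in every library; FPKM holds neither counts nor absolute depth. Steps between low values gave a relative depth of 0.848 to 1.27, with a disagreement of at most 2.5e-05 on the log2 scale. The p-value and q-value columns that the authors deposited beside them name no comparison and were left aside. Per the submitters' processing notes, R 4.1.2 and DESeq2 1.34.0 were used; the sources used here do not give the aligner, the quantifier, the strand setting or how reads shared by close copies were divided.

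Values were transformed to log2(FPKM + 1), and the 28260 genes that reached 1 FPKM in 3 or more libraries were fitted with limma 3.58.1 in R 4.3.3 (lmFit, eBayes with trend and robust settings) with 1 mean per group over all 12 libraries and 8 residual degrees of freedom. Tests were two-sided, with Benjamini-Hochberg adjustment over the tested genes. One batch label covers all 12 libraries, which leaves no batches to compare. On data simulated with independent noise per gene, the fit recovered 68% and 99% of genes changed by 1 and 2 on the log2 scale in nano-SiO2+MT against nano-SiO2. For the interaction it recovered 38% and 93%, so an interaction that was not called does not show equal effects. The simulation held no shift of whole libraries, such as the deposited values have, so these shares may not hold for them.

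Gene lists came from search words over the gene descriptions; the members, lists and tests were chosen with earlier results of these data known, and the saponin and wall polysaccharide lists after values were seen. Named were the 12 largest rises and falls among called genes with separate libraries in the 2 groups and a mean of 5 FPKM or more in the higher one, up to 3 called members of each list by smallest p, the most abundant member of a list without a call, and the 6 smallest p of the interaction; exceptions are marked. The text gives values for part of these 110 genes. Alternatives were other pseudocounts (0.1 and 0.5), filters, scalings, fits with 2 groups, a replicate block and each library left out. Sequences and coordinates are not used here, since the RefSeq table of 59048 genes held no match to the identifiers.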

Additional observations from a re-analysis of the deposited data

Results flagged for a closer look

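The melatonin difference with nano-SiO2 differed from that without it, by the interaction test of the fit over all genes, for 29 of the genes named in the text. Positive interactions, where melatonin on nano-SiO2 gave the higher difference, were those of the ferritins 01G124500 (4.58), 03G050100 (4.31), 18G205800 (4.1) and 07G155200 (3.95), of flowering-promoting factor 1 (04G074800, 2.23), of Expansin-A8 (18G054000, 4.42), of pectate lyase 18 (17G126500, 3.52) and of the uncharacterized 17G208200 (4.98). In the expansin, the lyase and 17G208200 nano-SiO2+MT 2 was the highest library of its group.

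Negative interactions in metal genes were those of the iron superoxide dismutases 20G196900 (-6.86) and 10G193500 (-4.52), DMT1 (17G165200, -2.95) and Nramp2a (05G101700, -1.53). In nitrogen genes they were those of the asparagine synthetases 02G228100 (-2.01) and 11G171400 (-1.51), the vegetative storage protein 07G014500 (-2.48) and non-symbiotic hemoglobin 1 (11G121800, -1.33). In other metabolism they were those of lipoxygenase 13G347800 (-2.15), lipoxygenase-10 (08G189600, -1.72), isoflavone reductase homolog 2 (04G012300, -1.95), beta-amylase (06G301500, -1.3), senescence-associated nodulin 1A (07G209100, -2.09), gibberellin 20 oxidase 1 (02G136000, -1.85), gibberellin 2-beta-dioxygenase (13G218200, -1.46), the Kunitz gene 16G211700 (-1.92) and the RuBisCO-associated protein (01G142400, -3.7). Genes without a described role were 02G282300 (-5.62), 14G032000 (-4.93), 05G011200 (-4.15) and 06G170300 (-2.64).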

How the results depend on the processing

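None of the 110 genes named by the rule, nor of 13 named after their values were seen, changed sign while called in the main or the alternative fit. Sign changes of genes called in neither fit were not counted. The called genes in nano-SiO2+MT against nano-SiO2 numbered 432 (87 higher, 345 lower); they were 229 (56, 173) with no filter on low values, 273 (213 lower) with a mean of at least 5 FPKM, 115 (23, 92) with only the 2 groups compared, 164 (39, 125) with a log2 difference of at least 1 required, and 316 and 307 with median-ratio scaling (142, 174) and quantile normalization (138, 169). With 1 library left out they ranged from 103 to 535, higher calls from 27 to 116 and lower calls from 66 to 432. Leaving out control 1 and nano-SiO2 2 together, chosen after seeing the data, gave 119 (35, 84) and 71 interaction calls. MT against control called 948 genes, 603 with a mean of at least 5 FPKM, 296 at a log2 difference of at least 1, and 350 to 1098 with 1 library left out. The interaction called 148 genes, 82 above that mean and 88 to 213 with 1 library left out; it could not be fitted with only 2 groups. With the replicate number as a block 789 genes were called (670 lower). Same-numbered nano-SiO2 and nano-SiO2+MT libraries deviated together at correlations of 0.441, -0.218 and 0.0759. For same-numbered control and MT libraries these were 0.16, -0.34 and 0.527. With so few libraries in a group these values cannot decide whether the numbers pair the samples. Named genes that lost their side of the threshold were 58 without nano-SiO2 2 and 59 without nano-SiO2+MT 1. Absolute depth is unknown, and the causes of these shifts were not tested.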

Other observations

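Further genes called in nano-SiO2+MT against nano-SiO2, chosen after their values were seen, serve nitrogen. LOB domain-containing protein 38 (11G049300), of a factor family that responds to nitrate in Arabidopsis, went from 10.9, 10.1 and 10.7 to 26.6, 28.98 and 25.6 FPKM, a difference of 1.27 (SE 0.14, adjusted p = 0.000937). Non-symbiotic hemoglobin 1 (11G121800), which removes nitric oxide, went from 5.04, 4.85 and 3.65 to 8.39, 7.82 and 11.04 FPKM (log2 difference 0.87, SE 0.15, adjusted p = 0.015). Arginase (03G028000), which splits arginine into ornithine and urea, went from 7.31, 6.44 and 6.13 to 2.77, 2.57 and 1.59 FPKM (log2 difference -1.22, SE 0.19, adjusted p = 0.00789). The hemoglobin call was lost without nano-SiO2+MT 1 (adjusted p up to 0.0539), and the other 2 were kept. LOB domain-containing protein 38 also rose with MT alone, by 1.80 (SE 0.14, adjusted p = 1.12e-05).

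Carbon stores gave a further kept fall, outside the starch list and also chosen after its values were seen. Alpha-1,4 glucan phosphorylase L-2 (20G026700), a plastid enzyme that acts on glucan chains, went from 16.03, 16.9 and 16.1 to 7.299, 7.03 and 6.77 FPKM (log2 difference -1.11, SE 0.11, adjusted p = 0.000397). A gene described as RuBisCO-associated protein (01G142400) went from 115, 122 and 85.1 to 48.1, 30.2 and 41.95 FPKM (log2 difference -1.41, SE 0.20, adjusted p = 0.00487), while with MT alone it rose by 2.29 (SE 0.20, adjusted p = 3.57e-05), from a control mean of 5.73 ± 1.12 FPKM to 31.9 ± 4.41 (SD, n = 3).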
